A study of Mus musculus with 24 samples.

Results

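The Ly6 genes encode small proteins of the cell surface that share a cysteine-rich fold, the LU domain, and most of which are held in the membrane by a glycolipid (GPI) anchor. Some of them are everyday markers of blood cells. The antigen Ly6C, encoded by Ly6c1 and Ly6c2, is high on inflammatory (classical) monocytes, Ly6G marks neutrophils, and Ly6a encodes Sca-1, the stem cell antigen that is also induced by interferon. Ly6e (Sca-2) is another interferon-induced member, Ly6d marks lymphoid progenitors turning to the B cell lineage and B cells, Ly6i is a close relative of Ly6c1 and Ly6a, and Ly6k is known mainly from the testis.

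Of the 8 listed genes, Ly6a, Ly6c1, Ly6c2, Ly6d, Ly6e, Ly6g, Ly6i, and Ly6k, the arrays gave 7 probes for 6. They were found as all probes, other than control spots, whose RefSeq accession stands for 1 of these symbols, out of 32451 genes or transcripts in the series. Ly6c1 had 2 probes and Ly6a, Ly6d, Ly6e, Ly6i, and Ly6k had 1 each. No probe could be matched to Ly6c2 or Ly6g, and these genes were not analysed here. The 7 probes were well above background on all 22 arrays used, so that no filter on low values removed a member. The 8 genes lie in 1 stretch of mouse chromosome 15 in the RefSeq annotation of GRCm38.p6, from Ly6d (chr15:74762056-74763567) to Ly6g (chr15:75155261-75159128), in the order Ly6d, Ly6k, Ly6e, Ly6i, Ly6a, Ly6c1, Ly6c2, Ly6g.

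RNA came from CD11b+ cells, that is myeloid cells carrying the integrin Itgam, of the spleen and the bone marrow. The adult mice were WT, HDC-KO (without histidine decarboxylase, which makes histamine), or STAT6-KO (without the transcription factor STAT6), all labelled male, and on a Balb/C background according to the study's methods. They were either controls or had had a myocardial infarction (MI) 1, 2, or 4 weeks earlier. Each combination had 1 array, with the cells of 5 mice pooled, so the spread between mice cannot be seen in these values. For the HDC-KO control spleen, and for STAT6-KO bone marrow at 1 week, the files gave only a few spots and were not used, which left 11 arrays of each tissue.

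The labels were checked first. The Hdc signal was 1.67 to 2.78 in HDC-KO and 4.32 to 5.51 in WT. These and all other levels are log2 signals relative to the 75th percentile of the same array, which is at 0. Stat6 was checked likewise. The spleen array labelled STAT6-KO MI 4 weeks was at 0.73 and 0.20 on 2 of its 3 probes, where WT spanned 0.05 to 1.29 and -0.43 to 1.99. The other 6 STAT6-KO arrays were at -1.11 to -0.29 and -1.72 to -0.27, with the bone marrow array at MI 4 weeks at -0.96 and -0.54. Xist, the RNA that silences an X chromosome in females, was well above background on 7 of 7 HDC-KO arrays, 2 of 7 STAT6-KO arrays, and 0 of 8 WT arrays on 1 of its 2 probes, although all mice were labelled male. The 2 STAT6-KO arrays were the controls of spleen (-2.06) and bone marrow (-3.18). Some comparisons are therefore also comparisons between pools with and without Xist signal on that probe. These are HDC-KO with WT, STAT6-KO control with WT control, and STAT6-KO after MI with STAT6-KO control. The STAT6-KO fits over all time points take in these control arrays. The part of Xist status in the Ly6 differences was not tested. The Y-linked genes Ddx3y and Eif2s3y were well above background on every array, also on those with Xist signal. Eif2s3y was at -0.16 to 2.21 in HDC-KO and 2.04 to 2.86 in WT. Ddx3y was at -2.48 to -1.15 and -1.14 to -0.29. Kdm5d, also Y-linked, was well above background on 1 of 7 HDC-KO, 4 of 7 STAT6-KO, and 5 of 8 WT arrays. Whether a pool held mice of both sexes was not tested. The 6 genes of the CD11b list (Itgam, Itgb2, Lyz2, Csf3r, Csf1r, Spi1) were well above background on every array, and so were 6 B cell genes on every spleen array and 5 of them on every bone marrow array. Slides were told apart by the recorded scan date, so that slide here means the arrays with the same scan date. By this grouping, each slide carried the time points of a single genotype and tissue, in a fixed order of positions. For genotypes in the same tissue, genotype and slide thus cannot be told apart, nor can time after MI and position. The same holds for tissue and slide within a genotype.

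Promoter windows were given for 3 of the 8 genes, Ly6c1, Ly6c2, and Ly6g. The windows of Ly6c1, which had the largest tissue difference of the 7 probes, and of its neighbour Ly6c2 are shown because the genes are close copies. They run from 250 bases before to 50 bases after a transcription start, at chr15:75048788-75049087 and chr15:75111922-75112221 on the minus strand of GRCm38.p6 (RefSeq). Within the part of the windows that aligned, capitals mark the bases that differ or have no partner.
Ly6c1: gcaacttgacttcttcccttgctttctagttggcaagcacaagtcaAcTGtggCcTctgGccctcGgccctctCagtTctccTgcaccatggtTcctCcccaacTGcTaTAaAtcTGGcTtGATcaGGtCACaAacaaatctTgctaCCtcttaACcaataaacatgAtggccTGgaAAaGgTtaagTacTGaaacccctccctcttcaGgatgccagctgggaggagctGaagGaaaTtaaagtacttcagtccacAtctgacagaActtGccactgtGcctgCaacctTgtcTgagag
Ly6c2: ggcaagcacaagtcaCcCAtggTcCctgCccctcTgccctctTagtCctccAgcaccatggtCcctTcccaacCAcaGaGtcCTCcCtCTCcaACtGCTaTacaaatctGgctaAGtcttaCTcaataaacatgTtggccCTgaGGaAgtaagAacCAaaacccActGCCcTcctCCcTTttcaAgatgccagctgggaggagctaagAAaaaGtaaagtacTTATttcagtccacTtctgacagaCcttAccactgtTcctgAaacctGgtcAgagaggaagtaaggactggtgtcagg
Of 283 aligned positions, 212 were identical (74.9%). The core of the interferon-stimulated response element (GAAA, any 2 bases, GAAA), the STAT motif TTCNNNGAA, and the STAT6 motif (TTC, any 4 bases, GAA), searched on both strands, were found in 0 of the 6 windows of these 3 genes. Among all 32851 mouse promoter windows of that length, 3.44%, 8.3%, and 6.95% held them. Whether the Ly6c1 probes also bind Ly6c2 mRNA was not tested, since the probe sequences were not used here, and the Ly6c1 values may hold signal of both genes.

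**Figure D1:**
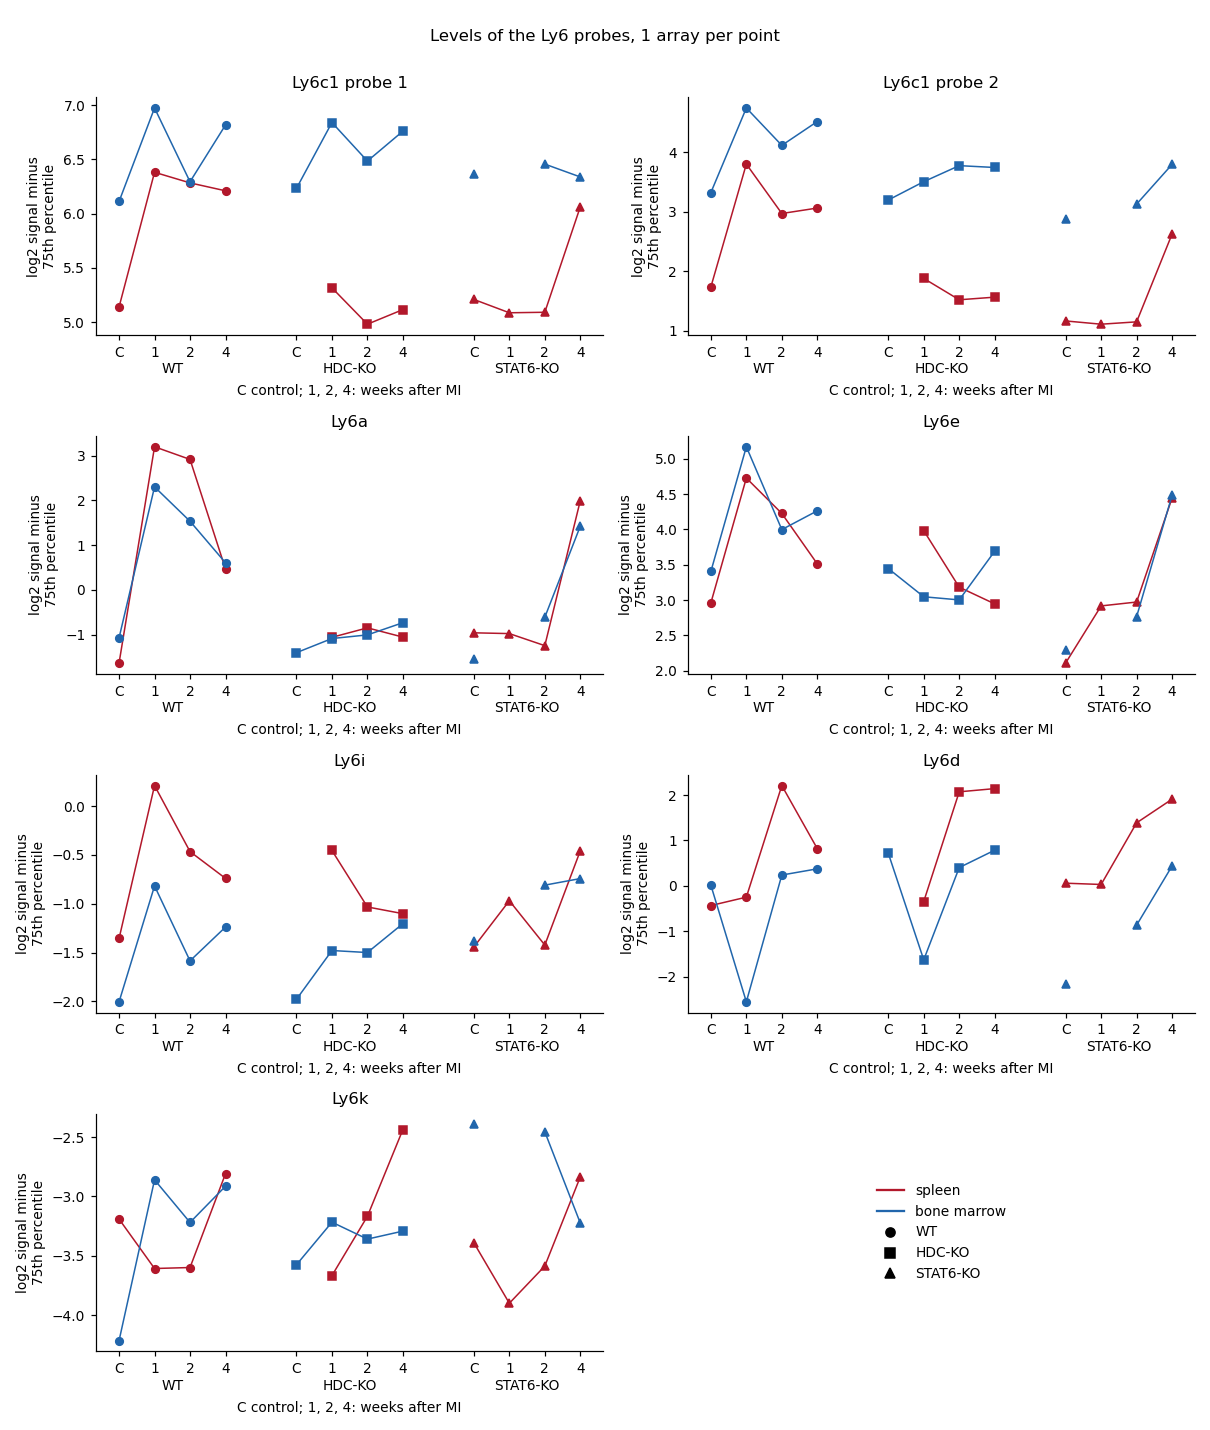
Level of each of the 7 Ly6 probes on the 22 arrays. Each panel shows 1 probe, with the log2 signal relative to the array's 75th percentile on the y axis and genotype and time point on the x axis (C, control; 1, 2, and 4 weeks after MI). Each point is 1 array, red for spleen and blue for bone marrow, and lines join neighbouring time points. Ly6a is between 0.47 and 3.20 in the 6 WT arrays after MI and between -1.40 and -0.73 in all 7 HDC-KO arrays.

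Ly6c1, 1 of the 2 genes of the Ly6C antigen, was read by both of its probes. On probe 1 the WT spleen level was 5.14 in control and 6.38, 6.28, and 6.21 at 1, 2, and 4 weeks after MI. In HDC-KO spleen it was 5.32, 4.98, and 5.12 at those times. In STAT6-KO spleen it was 5.21 in control, 5.09 and 5.09 at 1 and 2 weeks, and 6.06 on the array labelled 4 weeks. In spleen, the WT arrays after MI thus stood above all other arrays, with the spleen array labelled STAT6-KO MI 4 weeks just below them. In bone marrow the same probe varied less. It was 6.11, 6.97, 6.29, and 6.82 in WT (control, then 1, 2, and 4 weeks), and 6.23, 6.84, 6.48, and 6.76 in HDC-KO. In STAT6-KO bone marrow it was 6.36 in control and 6.46 and 6.34 at 2 and 4 weeks. The genotypes overlapped there.

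Probe 2 ordered the spleen arrays in a like manner. In WT spleen it was 1.73 in control and 3.80, 2.97, and 3.06 after MI. It was 1.88, 1.52, and 1.56 in HDC-KO spleen and 1.16, 1.11, 1.15, and 2.63 in STAT6-KO spleen. In spleen, the 3 WT arrays after MI were again the highest. In bone marrow it was 3.32, 4.75, 4.12, and 4.52 in WT, 3.20, 3.51, 3.78, and 3.75 in HDC-KO, and 2.87, 3.13, and 3.80 in STAT6-KO (control, 2 and 4 weeks). Here the WT arrays at 1, 2, and 4 weeks stood above all knockout arrays, which they did not on probe 1. The 2 probes went together across the 11 spleen arrays (Pearson's r = 0.95) and less so across the 11 bone marrow arrays (r = 0.61), where they also span less.

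Ly6i, the relative of Ly6c1 and Ly6a, moved over a 4.65-fold range. In WT spleen it was -1.36 in control and 0.21, -0.47, and -0.74 at 1, 2, and 4 weeks. It was -0.45, -1.03, and -1.10 in HDC-KO spleen, and -1.44, -0.97, -1.42, and -0.46 in STAT6-KO spleen. The WT array at 1 week was the highest of the 22. In bone marrow Ly6i was -2.01, -0.82, -1.59, and -1.24 in WT, -1.98, -1.48, -1.50, and -1.20 in HDC-KO, and -1.39, -0.81, and -0.74 in STAT6-KO. The control arrays of WT and HDC-KO were the lowest in bone marrow, and the genotypes overlapped.

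Ly6a, the Sca-1 gene, had the widest range of the 7 probes, 4.83 on the log2 scale or 28.5-fold. In WT spleen it was -1.63 in control, 3.20 at 1 week, 2.92 at 2 weeks, and 0.47 at 4 weeks after MI. In WT bone marrow it was -1.07 in control and 2.30, 1.53, and 0.61 at those times. In both tissues the WT level was thus highest at 1 week and lower at each later time. HDC-KO did not show such levels at any time. It was -1.06, -0.85, and -1.05 in HDC-KO spleen and -1.40, -1.09, -1.01, and -0.73 in HDC-KO bone marrow. In STAT6-KO spleen it was -0.96 in control, -0.98 and -1.25 at 1 and 2 weeks, and 2.00 on the 4 weeks array, and in STAT6-KO bone marrow -1.55 in control, -0.61 at 2 weeks, and 1.42 at 4 weeks. The 8 arrays above 0 were the 6 WT arrays after MI and the pair labelled STAT6-KO MI 4 weeks, and the other 14 lay between -1.63 and -0.61. Of that pair, the spleen array had Stat6 in the WT range on 2 probes and the bone marrow array was below it on both.

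Ly6e, the Sca-2 gene, moved over an 8.35-fold range. It was 2.96, 4.73, 4.23, and 3.51 in WT spleen and 3.41, 5.17, 4.00, and 4.26 in WT bone marrow, each in the order control, 1, 2, and 4 weeks. In HDC-KO it was 3.98, 3.18, and 2.95 in spleen (after MI) and 3.45, 3.05, 3.0, and 3.69 in bone marrow. In STAT6-KO it was 2.11, 2.92, 2.97, and 4.45 in spleen and 2.30, 2.77, and 4.48 in bone marrow. The WT arrays at 1 week were the highest in their tissues and the STAT6-KO control arrays the lowest, while the HDC-KO arrays after MI lay on both sides of the WT control level.

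Ly6d, the lymphoid member, followed another order, over a 27.2-fold range. In spleen it was -0.43, -0.25, 2.21, and 0.82 in WT, -0.35, 2.07, and 2.14 in HDC-KO (1, 2, and 4 weeks), and 0.06, 0.03, 1.39, and 1.91 in STAT6-KO. In all 3 genotypes the spleen arrays at 2 and 4 weeks were above those at 1 week. In bone marrow Ly6d was 0.01, -2.56, 0.24, and 0.37 in WT and 0.72, -1.63, 0.40, and 0.79 in HDC-KO. The 1 week array was the lowest on both of these slides. In STAT6-KO bone marrow it was -2.16 in control, -0.87 at 2 weeks, and 0.44 at 4 weeks.

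Ly6k, the testis member, had the narrowest range, 3.53-fold. Its level ranged from -3.90 to -2.44 in spleen (median -3.39) and from -4.21 to -2.39 in bone marrow (median -3.22). The lowest array was the WT bone marrow control and the highest the STAT6-KO bone marrow control.

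Spleen was compared with bone marrow over the 10 pairs of arrays of the same genotype and time point, with the pair as a block. In each genotype the spleen arrays and the bone marrow arrays were on different slides, which the block does not remove. The pairs of a genotype share these slides, so the 10 pairs are not independent of each other. Ly6c1 was lower in spleen, and Ly6d and Ly6i were higher. On Ly6c1 probe 1 the mean difference was -0.97 (log2, SE 0.17, limma adjusted p = 0.000544), and on probe 2 it was -1.61 (SE 0.14, adjusted p = 2.55e-06), a signal 1.95-fold and 3.05-fold higher in bone marrow. Both probes were lower in spleen in 10 of 10 pairs, as were 17.4% of the 33478 probes measured in all pairs. The smallest difference of probe 1 was -0.01, in WT at 2 weeks, and the largest -1.65, in HDC-KO at 4 weeks. Ly6d was 2.74-fold higher in spleen (1.45, SE 0.25, adjusted p = 0.000434) and higher in 9 of 10 pairs. The exception was the WT control pair, at -0.45. Ly6i was 1.37-fold higher in spleen (0.45, SE 0.17, adjusted p = 0.0391) and higher in 8 of 10 pairs. The Ly6i call passed in 10 of 24 alternative settings. The differences were 0.20 for Ly6a (SE 0.20, adjusted p = 0.423), -0.11 for Ly6k (SE 0.22, adjusted p = 0.687), and -0.11 for Ly6e (SE 0.16, adjusted p = 0.609), none of which passed. In all, 2 of 7 probes were called higher and 2 lower, where 54.9% of all 33524 probes were called (22.3% higher and 32.6% lower), so that the share of Ly6 probes called is close to that of all probes. Their median difference was -0.11, against -0.17 over all probes.

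**Figure D2:**
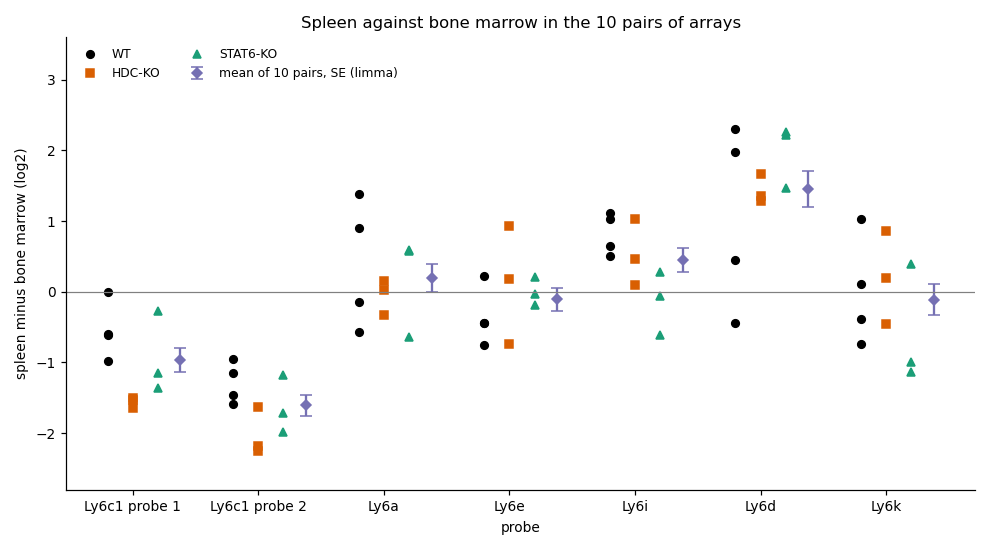
Difference between spleen and bone marrow (log2, y axis) for each of the 7 Ly6 probes (x axis). Each small point is 1 pair of arrays of the same genotype and time point (circles, 4 WT pairs; squares, 3 HDC-KO pairs; triangles, 3 STAT6-KO pairs), and the diamond is the mean of the 10 pairs with its standard error from limma. Both Ly6c1 probes lie below 0 in every pair, and Ly6d lies above 0 in 9 of 10.

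The cell markers moved with tissue as well. The summed signal of 4 classical monocyte genes other than Ly6c (Ccr2, F13a1, Ms4a4c, Chil3) was 6.08 to 7.02 in spleen and 6.65 to 7.48 in bone marrow, on the log2 scale. With tissue means removed, its r over the 22 arrays was 0.46 with Ly6c1 probe 1 and 0.17 with probe 2. The median level of the 4 genes did not follow their sum, in which Chil3 (up to 6.91) weighs most. In WT it was 4.64, 4.71, 4.21, and 4.60 in spleen and 4.47, 4.60, 3.91, and 4.55 in bone marrow (control, 1, 2, and 4 weeks). It was lower in spleen at 4 weeks in HDC-KO (4.03 against 4.32) and STAT6-KO (3.52 against 4.05), and higher in the other knockout pairs. The summed signal of 7 genes of immature neutrophil granules (Elane, Mpo, Prtn3, Ctsg, Ltf, Camp, Ngp) was 6.71 to 7.82 in spleen and 8.04 to 8.88 in bone marrow, with no overlap. The 6 B cell genes, such as Cd79b and Ms4a1, went the other way, at 4.18 to 5.99 in spleen and 2.02 to 4.62 in bone marrow. Macrophage genes (6 with a probe of Adgre1, C1qa, C1qb, C1qc, Mertk, Cd68, and Vcam1) were at 5.51 to 6.94 in spleen and at most 4.83 in bone marrow, and 5 NK cell genes (Ncr1, Klrb1c, Klrk1, Gzma, Prf1) at 1.90 to 4.89 and 0.14 to 1.60, neither with overlap. In pooled RNA, more cells of a type and more RNA per cell cannot be told apart, and the part of these markers in the Ly6c1 and Ly6d differences was not tested.

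HDC-KO was compared with WT within each tissue over the time points. In spleen, where 3 time points can be paired, Ly6a, both Ly6c1 probes, Ly6e, and Ly6i were lower in HDC-KO at each of them. Ly6a differed by -4.26 at 1 week, -3.76 at 2 weeks, and -1.52 at 4 weeks, 1 array against 1. Ly6c1 differed by -1.07, -1.30, and -1.10 on probe 1 and by -1.93, -1.45, and -1.50 on probe 2. These are 5 of 7 probes, where 19.9% of all 31359 probes measured in these pairs were lower in 3 of 3. In the limma fit over the 11 spleen arrays, with genotype and time as additive terms, 0 of 7 Ly6 probes passed, where 2.63% of 32087 probes did. At an unadjusted p under 0.05 there were 3 Ly6 probes, where 22.1% of all were. The estimates were -1.04 for Ly6c1 probe 1 (SE 0.29, adjusted p = 0.0951), -1.49 for probe 2 (SE 0.41, adjusted p = 0.0942), and -2.81 for Ly6a (SE 1.06, adjusted p = 0.171). That fit takes the STAT6-KO arrays into its error. With the WT and HDC-KO spleen arrays alone, 4 of 7 probes passed, where 9.42% of 31692 probes did. They were Ly6c1 probe 1 (-1.15, limma adjusted p = 0.0168) and probe 2 (-1.63, adjusted p = 0.012), Ly6a (-3.18, adjusted p = 0.0294), and Ly6e (-0.78, adjusted p = 0.0449). This smaller fit rests on 4 WT and 3 HDC-KO arrays, so few arrays are left to measure its error. In the fit with all 3 genotypes, leaving out any 1 time point gave 0 calls in each of 4 settings. The control array of HDC-KO spleen is missing, so whether these levels differed without MI was not measured in spleen. The summed macrophage signal moved with the spleen differences too. It was 5.61, 5.51, and 5.55 in WT at 1, 2, and 4 weeks, and 6.49, 5.89, and 6.65 in HDC-KO. The WT control (6.62) and the 4 STAT6-KO spleen arrays (6.56 to 6.94) were also above the WT arrays after MI, and the part of these markers was not tested.

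In bone marrow, where all 4 time points can be paired, HDC-KO and WT were close in control mice for the genes above. The differences in control were 0.12 and -0.13 on the Ly6c1 probes, -0.33 for Ly6a, and 0.04 for Ly6e. After MI, Ly6a differed by -3.39, -2.54, and -1.34 and Ly6e by -2.12, -1.0, and -0.57 at 1, 2, and 4 weeks. Ly6c1 probe 2 differed by -1.24, -0.34, and -0.77, whereas probe 1 differed by -0.13, 0.19, and -0.06. Ly6a and Ly6c1 probe 2 were lower at all 4 time points, as were 17.3% of 32213 probes, and Ly6d was higher at all 4, by 0.16 to 0.93, as were 16.7%. Over the 4 time points the limma estimates were -1.90 for Ly6a (SE 0.58, adjusted p = 0.163), -0.91 for Ly6e (SE 0.40, adjusted p = 0.246), and -0.62 for Ly6c1 probe 2 (SE 0.20, adjusted p = 0.178). Of the 7 probes 0 passed, where 0.424% of 32800 probes did, and 2 of 7 were at an unadjusted p under 0.05, where 21% of all were.

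STAT6-KO was set against WT at each time point, 1 array against 1. Whether the difference depends on time was not tested. In spleen, Ly6a was higher by 0.67 in control mice, lower by 4.18 and 4.16 at 1 and 2 weeks, and higher by 1.53 on the array labelled 4 weeks. Ly6c1 probe 1 differed by 0.07, -1.30, -1.19, and -0.15, and probe 2 by -0.57, -2.70, -1.82, and -0.44, in the same order. Ly6e differed by -0.85, -1.81, -1.25, and 0.93. For Ly6a and Ly6c1 the STAT6-KO level was thus farthest below WT at 1 and 2 weeks. Over the time points the estimates were -1.38 for Ly6c1 probe 2 (SE 0.37, limma adjusted p = 0.0863), -0.64 for probe 1 (SE 0.26, adjusted p = 0.189), and -1.53 for Ly6a (SE 0.94, adjusted p = 0.37). Ly6c1 probe 2 was lower at all 4 time points, as were 17.2% of 31397 probes. Of 7 probes 0 passed, where 1.96% of 32087 did, and 2 were at an unadjusted p under 0.05, where 22.7% of all were. The 4 weeks array is the one whose Stat6 signal lay among the WT arrays on 2 probes. In bone marrow, without the 1 week array, Ly6c1 probe 2 was lower in STAT6-KO at 3 of 3 time points (estimate -0.82, SE 0.23, limma adjusted p = 0.0919), as were 16.6% of 31875 probes. Ly6i was higher at 3 of 3 (0.54, SE 0.18, adjusted p = 0.129), as were 24.8%. Again 0 of 7 probes passed, where 4.34% of 32800 did, and 2 were at an unadjusted p under 0.05, where 22.9% of all were.

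**Figure D3:**
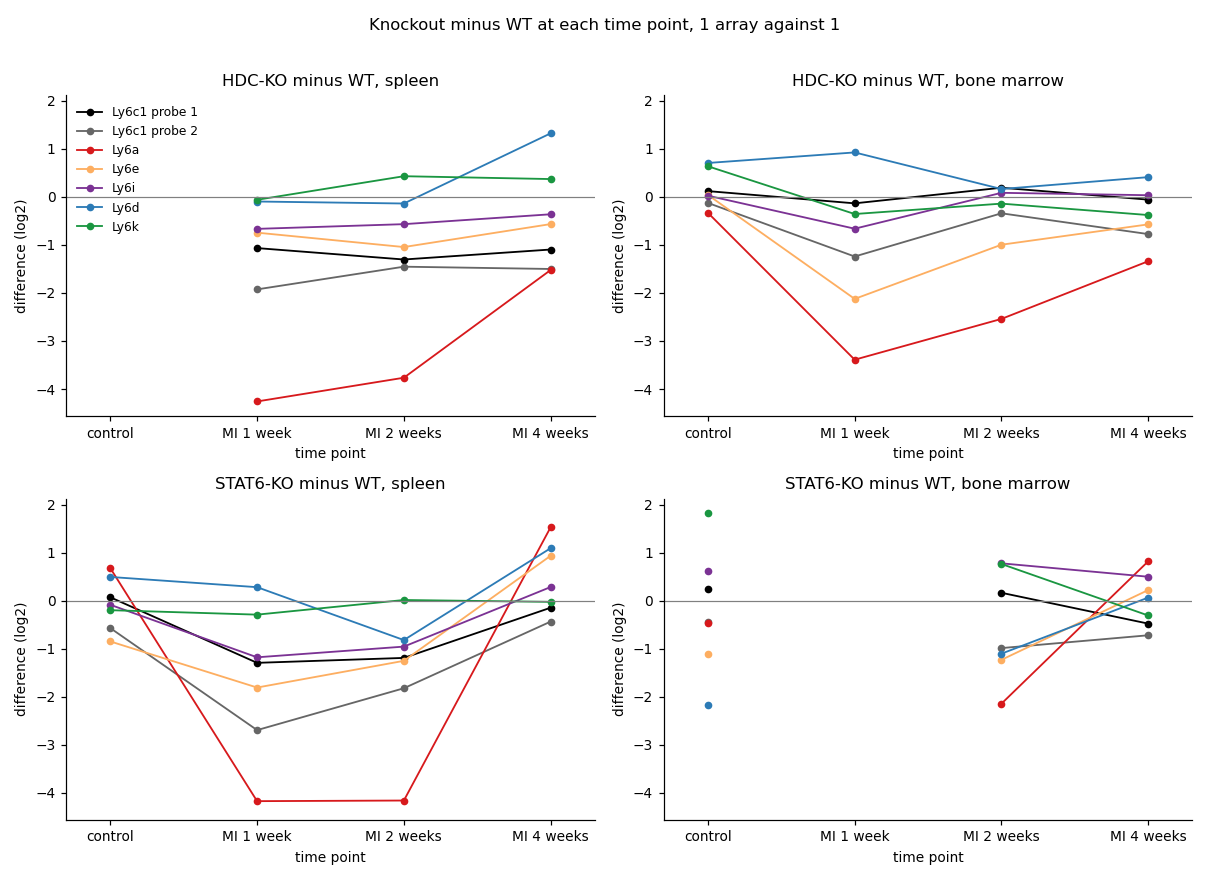
Knockout minus WT (log2, y axis) at each time point (x axis) for the 7 Ly6 probes, 1 array against 1, so without error bars. The panels show HDC-KO (top) and STAT6-KO (bottom) in spleen (left) and bone marrow (right). Ly6a (red) is lower by 4.18 or more at 1 week in spleen in both knockouts, and is above WT on the arrays labelled STAT6-KO MI 4 weeks.

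The genotype effects in spleen and in bone marrow were compared by an interaction term over 10 pairs. For HDC-KO the difference between tissues was -1.12 for Ly6c1 probe 1 (SE 0.33, limma adjusted p = 0.131) and -0.83 for probe 2 (SE 0.26, adjusted p = 0.145), and 0 of 7 probes passed, where 1.69% of 33524 did. At an unadjusted p under 0.05 there were 2, where 20.4% of all were. For STAT6-KO the lowest adjusted p was 0.244, for Ly6i (-0.83, SE 0.33). There 0 of 7 passed, where 1.04% did, and 1 was at an unadjusted p under 0.05, where 18.3% of all were. The genotype differences were thus not shown to differ between spleen and bone marrow.

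Time after MI was first followed in WT, 1 array against 1. In WT spleen at 1 week, 5 of 7 probes were more than 2-fold above control, where 6.03% of 30913 probes were. Ly6a was higher by 4.83, Ly6c1 by 1.24 and 2.07 on its probes, Ly6e by 1.77, and Ly6i by 1.57. At 2 weeks there were 5 (5.95% of all probes), with Ly6d, at 2.64, in place of Ly6i, and at 4 weeks 4 (4.11%), namely both Ly6c1 probes, Ly6a, and Ly6d. In WT bone marrow there were 5 at 1 week (9.65%), 1 at 2 weeks (4.41%), and 3 at 4 weeks (10.9%), with Ly6a higher by 3.37, 2.61, and 1.68. Ly6d was lower by more than 2-fold in WT bone marrow at 1 week (-2.57), as were 8.3% of the probes there.

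The knockouts gave other values. In HDC-KO bone marrow, 0 of 7 probes were over 2-fold higher than control at 1, 2, or 4 weeks, where 6.42%, 4.82%, and 7.93% of all probes were, and Ly6a was higher by 0.32, 0.40, and 0.67. Ly6d at 1 week was lower by more than 2-fold (-2.35), as were 9.45% of the probes. In STAT6-KO spleen 0 of 7 were over 2-fold higher at 1 week (2.62% of all probes), 1 at 2 weeks, Ly6d (1.78%), and 4 on the array labelled 4 weeks (7.12%). In STAT6-KO bone marrow there was 1 at 2 weeks, Ly6d (3.49%), and 3 at 4 weeks (7.21%), with Ly6a at 2.97 and Ly6e at 2.19.

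In fits over all genotypes of a tissue, 0 of 7 Ly6 probes passed for any time point against control. In spleen the limma calls over all probes were 7.81% at 1 week, 2.01% at 2 weeks, and 0% at 4 weeks, with 3, 1, and 4 Ly6 probes at an unadjusted p under 0.05 (27.6%, 23.7%, and 8.51% of all). In bone marrow they were 0.22%, 0%, and 0%, with 5, 1, and 4 Ly6 probes at an unadjusted p under 0.05 (19.7%, 7.53%, and 19.9% of all). The lowest adjusted p of a Ly6 probe in these fits was 0.0524, for Ly6d at 2 weeks in spleen (1.99, SE 0.41), which passed in 3 of the alternative settings. Ly6d at 1 week in bone marrow was at -2.05 (SE 0.52, adjusted p = 0.125). For MI 1 week in spleen, Ly6a was at 2.37 (SE 1.26, adjusted p = 0.264) and Ly6e at 1.48 (SE 0.55, adjusted p = 0.13). Without the STAT6-KO arrays, the WT control is the only control array in spleen. The additive fit then assumes that HDC-KO rose from its control as WT did, which was not measured there. Under that assumption the estimates at 1 week in spleen were 4.29 for Ly6a, 1.79 for Ly6e, 1.5 for Ly6i, and 1.29 and 1.92 for Ly6c1. With 1 control array, the spread between controls cannot be seen, so nothing is concluded from which probes pass in this fit. All 7 probes were higher at 4 weeks in spleen in both pairs that exist, WT and STAT6-KO, as were 34.2% of 30795 probes.

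The members fell into groups by their pattern over the 22 arrays, with each tissue's mean removed. Ly6a went with Ly6e (Pearson's r = 0.84), with Ly6c1 on probe 2 (0.86) and probe 1 (0.74), and with Ly6i (0.72). Ly6d and Ly6k stood apart. Their r with each of the other probes and with each other was between -0.18 and 0.25. These values describe arrays that share slides and scaling, and whether any of them share mice was not stated.

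Ly6a and Ly6e also moved with 9 interferon-induced genes (of the list Isg15, Ifit1, Ifit2, Ifit3, Irf7, Mx1, Rsad2, Usp18, Oasl2, and Cxcl10), all well above background on every array. Their summed signal in WT was 5.17 in spleen control and 7.57, 7.06, and 6.63 after MI, and 4.52 in bone marrow control and 8.14, 6.78, and 5.38 after MI. It was 5.01 to 6.04 in HDC-KO spleen and 5.25 to 5.95 in HDC-KO bone marrow. In STAT6-KO it was 4.40 to 5.20 in spleen and 3.15 to 4.06 in bone marrow, other than on the arrays labelled 4 weeks, at 7.51 and 6.93. Across the 22 arrays, with tissue means removed, this sum went with Ly6e (r = 0.90), Ly6a (r = 0.83), Ly6c1 probe 2 (r = 0.81) and probe 1 (r = 0.64), and Ly6i (r = 0.58), and r was -0.01 for Ly6k. For Ly6c1 probe 1 the r was 0.89 within spleen and 0.40 within bone marrow, and for Ly6i 0.87 and 0.34. For Ly6e, Ly6a, and Ly6c1 probe 2 it was 0.80 or more within each tissue. In HDC-KO, the spleen arrays at 1 and 4 weeks (sums of 5.86 and 6.04) and the bone marrow array at 4 weeks (5.95) had Ly6a at -1.06, -1.05, and -0.73. WT bone marrow at 4 weeks had a lower sum (5.38) and Ly6a at 0.61. The part of interferon-induced RNA in the Ly6 differences was not tested. With 5 stem and progenitor cell genes (Kit, Cd34, Gata2, Mecom, Hlf), the cells for which Sca-1 is used as a marker, the r of Ly6a was -0.34.

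Ly6d moved with the B cell genes instead. Its r with the sum of 6 B cell genes (Cd79a, Cd79b, Ms4a1, Pax5, Ebf1, Cd22) was 0.95 with tissue means removed, 0.92 within spleen and 0.97 within bone marrow. With 5 early B cell genes (Vpreb1, Vpreb3, Igll1, Rag1, Dntt) it was 0.91, and with 5 NK cell genes 0.74. The B cell sum in bone marrow was lowest on the WT and HDC-KO arrays at 1 week (2.02 and 2.69) and the STAT6-KO control (2.78), the same 3 arrays on which Ly6d was lowest. In spleen it was 5.67 or more on the arrays with Ly6d above 1 and at most 5.27 on the others. The summed early B cell signal was -0.22 to 2.61 in spleen and 0.28 to 4.26 in bone marrow, so it was not higher in spleen as Ly6d was. Whether B cells among the CD11b+ cells gave the Ly6d signal was not tested.

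**Figure D4:**
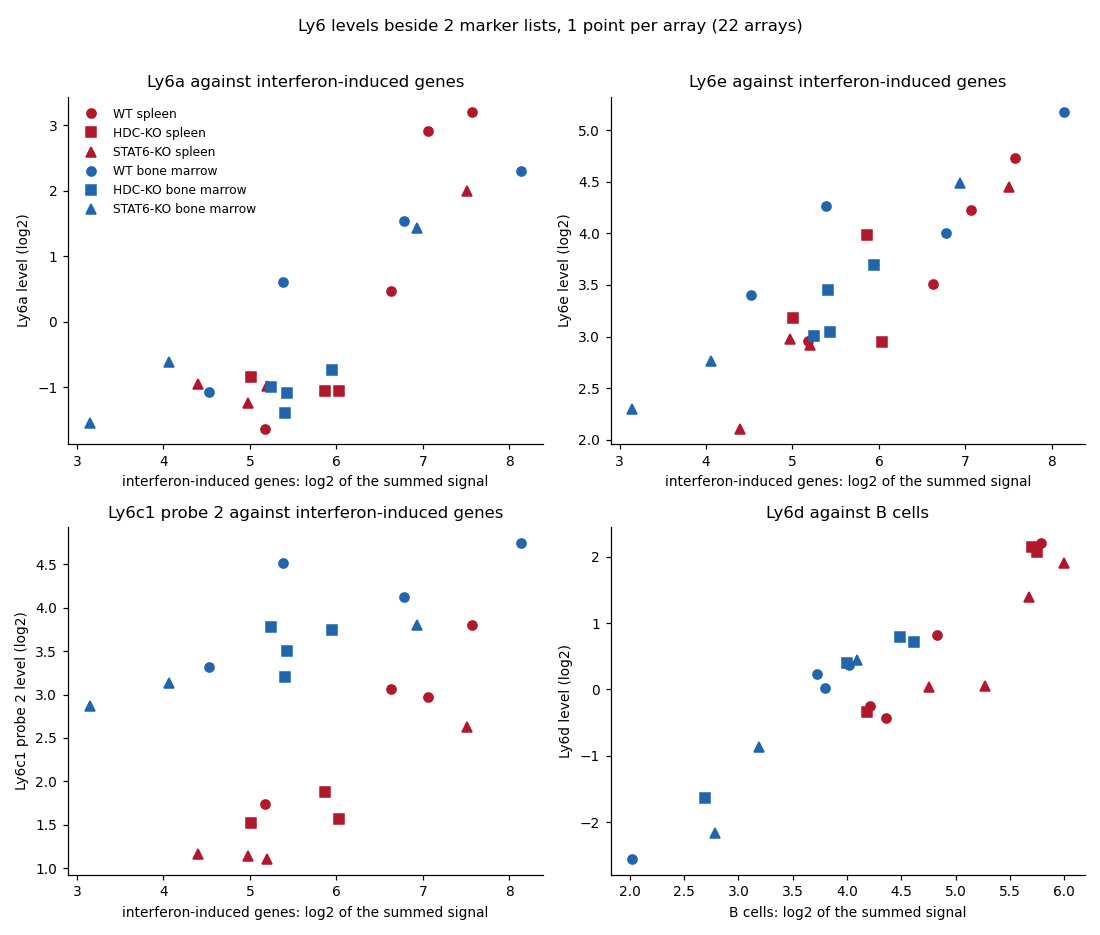
Ly6 levels (log2, y axis) beside the summed signal of marker genes (log2, x axis), with 1 point per array, red for spleen, blue for bone marrow, circles for WT, squares for HDC-KO, and triangles for STAT6-KO. Ly6a, Ly6e, and Ly6c1 probe 2 are set beside 9 interferon-induced genes and Ly6d beside 6 B cell genes. Ly6a is below 0 on every array whose interferon sum is under 5.38 and above 1 on those at 6.78 or more, and Ly6d is higher where the B cell sum is higher in both tissues (r = 0.92 and 0.97).

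The genes most like each member were looked up among 21668 named probes, by Pearson's r over the 22 arrays with tissue means removed. For Ly6a they were Ifit2 (0.94), Ifit1bl1 (0.93), Gbp6 (0.91), Gvin1 (0.90), and Csprs (0.90). For Ly6e they were Ogfr (0.96), Phf11b (0.95), Phf11a (0.95), Trafd1 (0.95), and Dhx58 (0.94). For Ly6c1 probe 1 they were Ccdc88b (0.93), Cd52 (0.89), Tnf (0.86), Ly6f (0.86), and Plcg2 (0.84), of which Ly6f is another gene of the family and Tnf encodes the inflammatory cytokine. For Ly6d they were Ralgps2 (0.95), Myl4 (0.95), Tmem121 (0.94), Cpm (0.94), and Fcmr (0.94), where Fcmr encodes a receptor for IgM. Ly6i was most like Fam178b (0.86) and Ly6k most like Scg3 (0.91).

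The wider Ly6/uPAR superfamily, the genes that share the LU domain, gave 33 genes with a probe of 36 listed. Between spleen and bone marrow, 31 of their probes were tested, of which 1 was higher and 16 were lower in spleen (22.3% and 32.6% over all probes). The median was -0.62, against -0.17 over all probes. The 4 with the largest differences were Ly6g6f (-2.95, SE 0.31, limma adjusted p = 8.81e-06), Ly6g5b (-2.61, SE 0.17, adjusted p = 3.14e-07), Lypd10 (-1.66, SE 0.26, adjusted p = 0.000185), and Plaur (-1.53, SE 0.10, adjusted p = 3.29e-07), the urokinase receptor of myeloid cells. Ly6g5b and Plaur were well above background on all 22 arrays, but Ly6g6f on only 12 and this Lypd10 probe on only 3. The differences of Ly6g6f and Lypd10 thus rest in part on values near background. Tex101, a partner of Ly6k in the testis, was the one that was higher (1.00, SE 0.16, adjusted p = 0.00029). Ly6f, which lies in the same cluster as the members, was lower in spleen like Ly6c1 (-1.33, SE 0.35, adjusted p = 0.00691). For MI 1 week in spleen, where 7.81% of all probes were called, 2 of 25 were, Psca being lower (-1.72, SE 0.22, limma adjusted p = 0.0102) and Ly6g5b higher (1.43, SE 0.30, adjusted p = 0.032). Psca was lower at 2 weeks in spleen as well (-1.31, adjusted p = 0.0363), the 1 call among 25 probes, where 2.01% of all were called. STAT6-KO against WT gave 1 call among 25 probes in spleen, Gml on 1 probe (-1.52, adjusted p = 0.0162), where 1.96% of all were called. In bone marrow it gave 1 among 29, Tex101 (1.19, adjusted p = 0.04), where 4.34% of all were called. In STAT6-KO, the difference between the tissues in the genotype effect passed for 2 of 31 probes, where 1.04% of all did. They were Gml (-2.60, adjusted p = 0.0321) and Ly6g6c (-1.65, adjusted p = 0.0493). In HDC-KO it passed for 1 of 31, Lypd3 (1.74, adjusted p = 0.0408), where 1.69% of all did. HDC-KO against WT gave 0 calls among 25 probes in spleen and 0 among 29 in bone marrow, with 8 in each at an unadjusted p under 0.05, where 22.1% and 21% of all probes were.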

How the data were processed

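RNA of CD11b+ cells pooled from 5 mice was hybridised to 1-colour Agilent arrays (Mouse 4x44K), 1 array for each of 24 combinations of genotype, tissue, and time point, of which 22 were used. The deposited values are spot intensities, which the authors read with Agilent Feature Extraction 11.0.1.1, with the local background subtracted and no scaling between arrays. The labels' processing notes also name GCRMA, and the values used here precede it. The log2 signal minus the 75th percentile of each array was taken, and 27234 of 39429 probes were given a symbol through RefSeq accessions (GRCm38.p6). All 7 probes of the listed genes are named. The members and lists were chosen with earlier results of these data known, and some marker genes were left out of the lists and are not reported here.

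Differences were fitted with limma 3.58.1 in R 4.3.3 over all probes well above background on at least 2 arrays, with Benjamini-Hochberg adjustment and a threshold of 0.05, after a test on simulated data. Tissue was fitted with the pair as a block, and genotype and time as additive terms within a tissue. The error thus measures the spread between pooled arrays after those terms, not between mice, and the number of arrays limits the precision. The 75th percentile of the signal was 928 to 2461 in spleen and 963 to 1780 in bone marrow. Alternatives changed the scaling, background correction, filter, block, test, and arrays used.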

Additional observations from a re-analysis of the deposited data

Results flagged for a closer look

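Over the 7 probes, 35 sets were examined, the 4 arrays of a genotype and tissue or the 10 differences between the tissues. In 6 of them an array stood far from the others, and chance alone flags about 1 set in 20. Each set spans time points, so its values are not replicates. Of the STAT6-KO spleen arrays, the one labelled MI 4 weeks was far above the other 3 for Ly6a (2.00), Ly6c1 probe 1 (6.06), and Ly6c1 probe 2 (2.63). The gap to the nearest array was 0.91, 0.87, and 0.96 of the whole range of the set. Ly6c1 probe 1 was far below the other WT spleen arrays in control (5.14). Ly6d was far below the other bone marrow arrays at MI 1 week in WT (-2.56) and in HDC-KO (-1.63).

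Ly6k after MI ran in opposite directions in bone marrow. The difference from control was above 0 on all 3 arrays of WT (mean 1.21, from 0.99 to 1.35) and of HDC-KO (mean 0.29, from 0.22 to 0.36), and below 0 on both arrays of STAT6-KO (-0.83 and -0.06). The difference between the genotypes was not tested, and all differences within a genotype share its control array.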

How the results depend on the processing

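Of 203 recomputed counts of called Ly6 probes over 13 comparisons, 191 stayed within 1.5 times the reported count. In all comparisons but spleen against bone marrow the reported count was 0, so for these it means only that 0 stayed 0. Of 95 recomputed differences of the 4 called probes between spleen and bone marrow, 79 kept their call, with 0 turning direction. Ly6i lost its call under 14 of 24 alternatives (0.37 to 0.57, limma adjusted p 0.00701 to 0.144), and Ly6c1 probe 1 under the methods' test with its minimum of 2-fold. Under that test, with or without Benjamini-Hochberg adjustment, 2 Ly6 probes were called between the tissues (Ly6c1 probe 2 and Ly6d), and without adjustment 1 for HDC-KO in bone marrow (Ly6a). For HDC-KO in spleen 4 were called with the 2 groups compared alone. For MI 1 week in spleen the count was 1 with median scaling (Ly6i) and 1 without the spleen array labelled STAT6-KO MI 4 weeks or without both STAT6-KO MI 4 weeks arrays (Ly6e, the last chosen after seeing the data). For MI 2 weeks in spleen it was 1 with median scaling, with a floor, and with only the probes that every array of the fit detected (Ly6d). Leaving out a pair of arrays or a genotype gave 3 to 4 calls between the tissues, 0 to 5 for MI 1 week in spleen, and 0 to 1 for MI 1 week in bone marrow, where Ly6d passed without STAT6-KO (-2.46, limma adjusted p = 0.0339). The cause was not tested. The highest of these counts for MI 1 week in spleen came without STAT6-KO, where the WT control is the only control array. Nothing is concluded from that count. Other than for HDC-KO in spleen, the share of all probes called in these settings is not given here. These counts thus do not set the Ly6 probes apart from other probes. Normexp background correction moved the median of all probes by 0.48 for MI 1 week in spleen, 0.34 for STAT6-KO in spleen, and 0.25 for MI 1 week in bone marrow, and median scaling by 0.30 and 0.25 for MI 1 and 2 weeks in spleen. Some uncalled differences of Ly6 probes turned sign with scaling, among them Ly6k for MI 1 week in spleen (from -0.53 to 0.20 with normexp) and Ly6d there (median scaling), Ly6k for STAT6-KO in spleen and Ly6c1 probe 1 for HDC-KO in bone marrow (normexp), and Ly6e between the tissues (quantile).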
